A study of Mus musculus with 9 samples.

Results

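The genes described here are 39 members of the Wnt pathway and of the intestinal stem cell program, chosen by name and found by matching the mouse Ensembl identifiers of the deposited table to GENCODE symbols. They were chosen with earlier results of these data known, so the shares of them called describe this list only. All 39 were among the 48795 genes of the table, and 34 passed the filter on low values that left 12741 genes to test. The libraries are bulk RNA-seq of mouse colon organoids, which are epithelial cultures grown from isolated colon crypts embedded in Matrigel. All organoids were kept in WENR, a medium with Wnt3a, EGF, Noggin and R-spondin1 that expands crypt cells, together with nicotinamide and inhibitors of p38 and of TGF-beta receptors. FICZ is a high affinity ligand of the aryl hydrocarbon receptor (AHR), a transcription factor that moves to the nucleus when a ligand binds, and DMSO was its vehicle. The 4 groups were wild type (WT) organoids with DMSO for 4 h (2 libraries, replicates 2 and 3), WT with 5 nM FICZ for 4 h (3 libraries, replicates 1, 2 and 3), AHR KO with DMSO for 4 h (2 libraries, replicates 1 and 3), and AHR KO with 5 nM FICZ for 4 h (2 libraries, replicates 1 and 3). Per the study's methods, AHR KO organoids came from Villin-Cre Ahr fl/fl mice, in which Cre is driven in the gut epithelium, and WT organoids from their littermates, all on a C57BL/6 background. The age of the mice is not given in the sources used here. The methods speak of biological replicates, but the labels do not tie a replicate number to a mouse, so p-values measure the spread between these libraries.

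In the absence of a Wnt ligand, a destruction complex built on APC and AXIN proteins, with the kinase GSK3B, marks beta-catenin for degradation. When Wnt binds a Frizzled receptor together with LRP5 or LRP6, beta-catenin builds up and joins TCF and LEF proteins on DNA. In the gut this pathway maintains the stem cells at the crypt base. It also switches on its own inhibitors, among them AXIN2, NKD1 and NOTUM. The 39 members were therefore read in 5 classes: feedback and antagonist targets (7 genes), crypt and stem cell genes (12 genes), Wnt target transcription factors and crypt receptors (7 genes), nuclear effectors of the TCF/LEF family (4 genes), and receptors with the destruction complex (9 genes).

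Normalised library totals lay between 23177058 and 25033827, and pairs of libraries of 1 group correlated more highly across genes (r = 0.986 to 0.991) than pairs of different groups (r = 0.964 to 0.984). Ahr itself was not lower in the libraries labelled AHR KO: its value was 783 to 858 in the 5 WT libraries and 1346 to 1443 in the 4 AHR KO libraries. A gene total of this kind does not resolve a deleted exon, and which part of Ahr was deleted was not analysed here. Cyp1a1, the classical AHR target, was 0 to 5.84 in WT and 0 to 2.93 in AHR KO with DMSO. With FICZ it reached 6987 to 7958 in WT and 100 to 139 in AHR KO, so a smaller response was also seen in the libraries labelled AHR KO. Markers of the epithelium were present in all libraries, while those of immune cells (7 genes, each with a mean under 1) and of endothelium (4 genes) were at or near 0. Of 7 fibroblast markers only Pdgfrb passed the filter, and 5 had a mean under 1; the list summed to 57.5 to 110.9 in WT and 19.4 to 39.1 in AHR KO.

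A gene was called when its adjusted p in limma, corrected over all 12741 genes tested, was under 0.05. The plainest result with FICZ was in WT organoids: Sox9, Lrig1, Myc and Axin1 fell and Tcf7l2 rose, and these 5 calls were kept under every alternative setting and without any single library. In the AHR KO organoids no member showed a change that held up in this way. Each AHR KO group had 2 libraries, as had WT with DMSO, so a fit without 1 of them keeps 1 there. Axin1 also fell in AHR KO (log2 change -0.31, limma adjusted p = 0.0339). Of the 5 genes, only Sox9 and Lrig1 were called when the FICZ changes of the genotypes were compared. Between genotypes the firmest differences were those of Tnfrsf19, about 3-fold higher in AHR KO under both treatments, and, under FICZ, of 9 further members: Sox9, Lrig1, Sp5, Prom1, Hopx and Fzd7 were higher, and Tcf7l2, Slc12a2 and Cdca7 lower. Members at the core of the cascade (Ctnnb1, Apc, Gsk3b and Lrp6) and the standard feedback target Axin2 were called in none of the 5 contrasts on the deposited values. In bulk RNA, fewer cells of a type and less RNA per cell cannot be told apart.

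**Figure D1:**
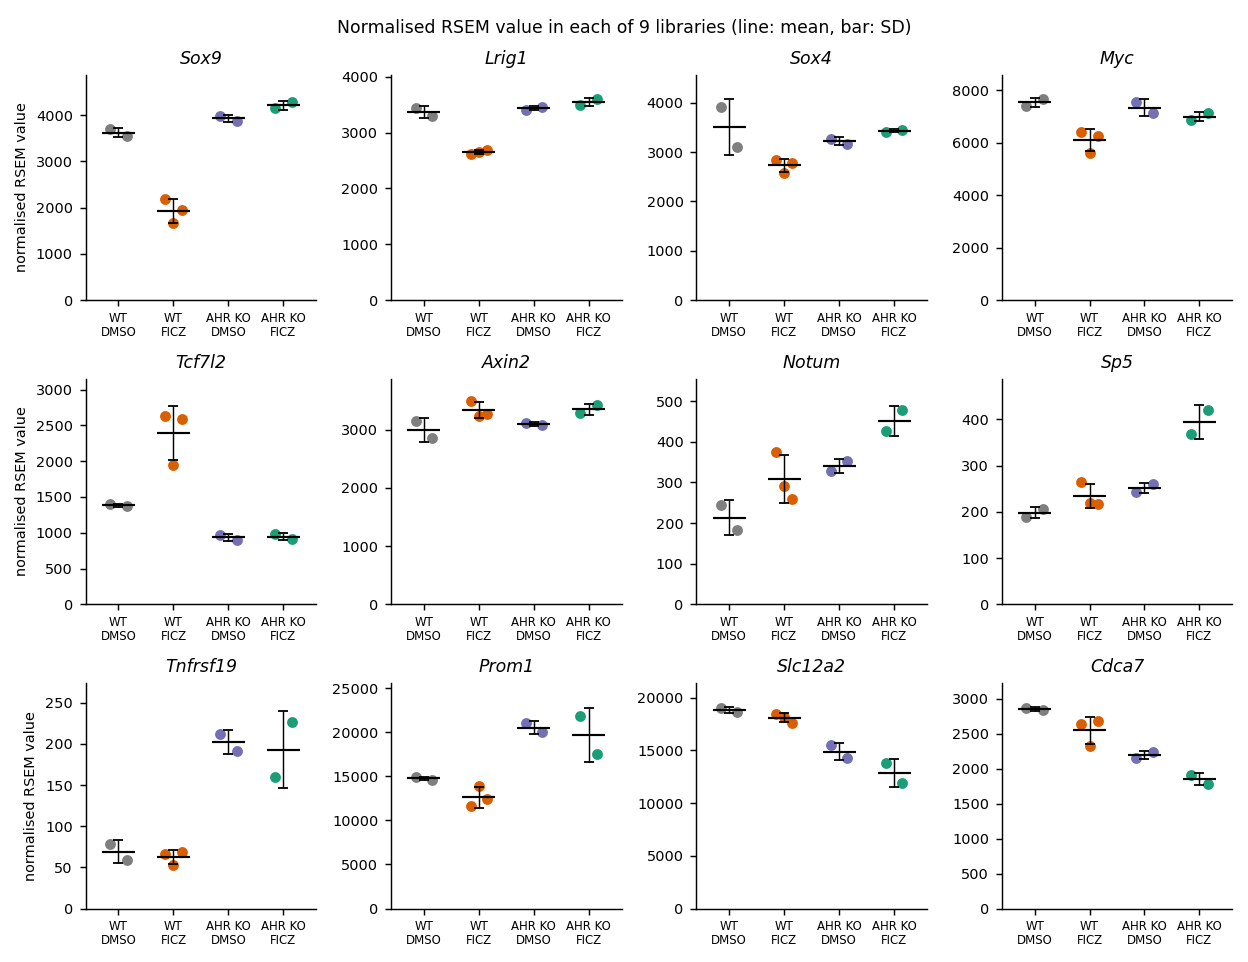
Normalised RSEM value (vertical axes, starting at 0) of 12 members in each library (points) of the 4 groups (horizontal axes), with the group mean (line) and SD (bar). Sox9 and Lrig1 were low only in the 3 WT libraries with FICZ, while Tnfrsf19 and Prom1 were higher in all 4 AHR KO libraries than in all 5 WT libraries.

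Promoter windows are shown for 4 members because the results below turn on how these genes moved: Tcf7l2 (higher with FICZ in WT), Sox4 (lower), Ephb3 (higher in both genotypes) and Sp5 (higher in AHR KO), each on the deposited values. With a trend over GC content and length removed, Ephb3 (0.12 in WT and -0.00 in AHR KO) and Sp5 (0.15 in AHR KO) were not called. RefSeq windows were found for 27 of the 39 members, each 300 bases long (250 before the annotated start and 50 after it). Only the 250 bases before the start are printed, 5′ to 3′ on the strand of the gene, build GRCm38.p6. Capitals mark the letters GCGTG, the core of the AHR response element, or CTTTGA, the core of the element bound by TCF and LEF proteins, in either orientation (CACGC and TCAAAG on the other strand); matches of the 2 motifs can share at most 1 base.
Tcf7l2, chr19:55741560-55741809, plus strand: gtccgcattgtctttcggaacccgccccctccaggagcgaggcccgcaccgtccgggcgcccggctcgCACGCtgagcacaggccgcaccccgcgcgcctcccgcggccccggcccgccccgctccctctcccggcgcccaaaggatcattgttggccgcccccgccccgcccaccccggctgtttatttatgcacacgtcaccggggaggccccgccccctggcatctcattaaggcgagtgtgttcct
Sox4, chr13:28953700-28953949, minus strand: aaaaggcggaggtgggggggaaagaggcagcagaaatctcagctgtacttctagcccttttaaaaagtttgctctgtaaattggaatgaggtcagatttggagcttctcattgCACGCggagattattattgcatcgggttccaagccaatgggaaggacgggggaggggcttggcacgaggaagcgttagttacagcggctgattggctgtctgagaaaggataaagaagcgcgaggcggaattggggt
Ephb3, chr16:21204545-21204794, plus strand: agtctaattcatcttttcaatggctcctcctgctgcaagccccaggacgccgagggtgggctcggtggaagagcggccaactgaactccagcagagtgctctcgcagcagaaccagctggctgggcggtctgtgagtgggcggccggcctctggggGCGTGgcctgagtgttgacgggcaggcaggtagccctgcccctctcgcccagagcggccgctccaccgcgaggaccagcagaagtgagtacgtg
Sp5, chr2:70474673-70474922, plus strand: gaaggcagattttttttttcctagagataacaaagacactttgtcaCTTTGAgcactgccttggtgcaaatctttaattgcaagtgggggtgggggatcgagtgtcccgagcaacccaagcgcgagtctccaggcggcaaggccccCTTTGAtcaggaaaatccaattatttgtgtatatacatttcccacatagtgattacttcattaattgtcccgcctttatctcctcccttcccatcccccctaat

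The GCGTG letters began 182 bases before the start in the Tcf7l2 window printed, 137 bases before it in the Sox4 window and 94 bases before it in the Ephb3 window. The Sp5 window held CTTTGA at 204 and again at 104 bases before the start, and no GCGTG. RefSeq gave a further Tcf7l2 window (chr19:55895071-55895320), in which neither motif was found. Over the full 300 bases, 15 of the 27 members (55.6%) held GCGTG, against 35.2% of all 27025 genes in the promoter table and 56.9% of the 9607 tested genes that could be matched by symbol. CTTTGA was found for 5 of the 27 members (18.5%), against 18.2% of all genes and 13.9% of the tested genes. For GCGTG the members' share was thus close to that of the tested genes. Of the 6 members called with FICZ in WT that had a window, 5 (83.3%) held GCGTG and 0 held CTTTGA, against 59.5% and 13.6% of the 3039 tested genes called there. These 6 are only a part of the 12 members called, too few to compare shares. Ephb2 and Ephb3, both with GCGTG, lost that call when the trend over GC content and length was removed. A match to letters is a description and not a bound site.

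How much each gene was expressed can be compared between genes only per length, here as the value per kb of annotated exons. Ctnnb1, which encodes beta-catenin, was the most abundant member with 4882 per kb over the 9 libraries. Cd44, a surface glycoprotein of crypt cells, followed with 2647 per kb, the transcription factor Myc with 2538 and Prom1, a membrane protein of crypt progenitors, with 2288. The order of these 3 genes differed between groups: with DMSO, Myc led in WT (2775, against 2557 for Cd44 and 2058 for Prom1) and Prom1 in AHR KO (2856, against 2737 for Cd44 and 2702 for Myc). At the other end, Tcf7l1 stood at 2.49 per kb, Lef1 at 0.967, Apcdd1 at 0.548, Msi1 at 0.177 and Wif1 at 0.125. These last 5 genes did not pass the filter. Of the TCF/LEF family, Tcf7 (316 per kb) and Tcf7l2 (173 per kb) therefore made up nearly all of the measured RNA. Among the Frizzled and LRP receptors the order was Lrp5 (487 per kb), Lrp6 (282), Fzd5 (211) and Fzd7 (98.5).

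**Figure D2:**
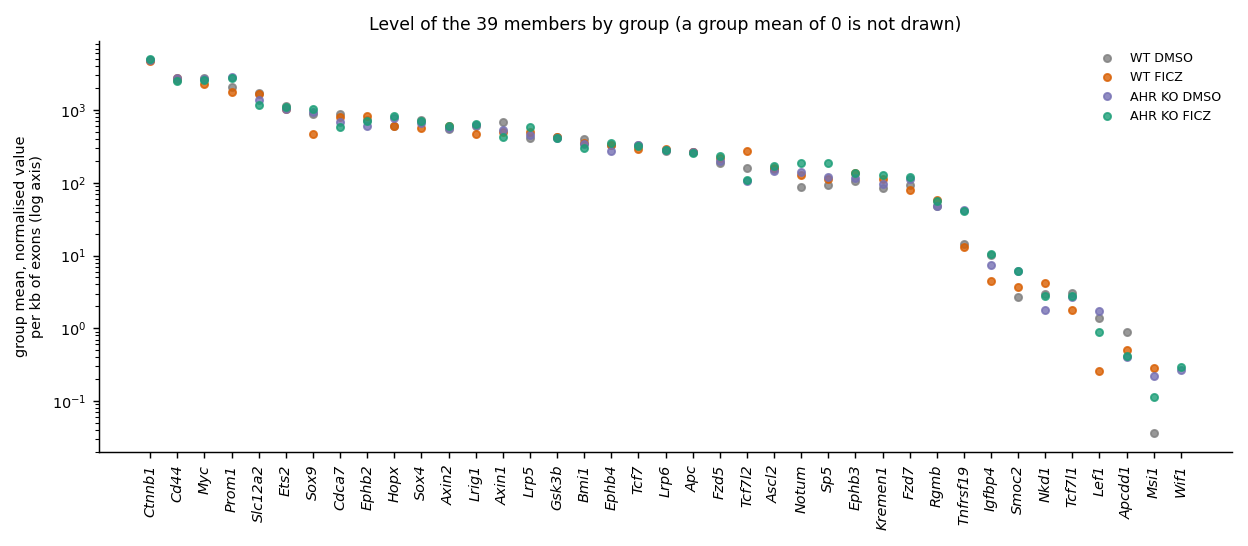
Group mean per kb of exons (vertical axis, log scale) of the 39 members, ordered by their mean over the 9 libraries, with 1 point for each of the 4 groups. The levels run from 4882 per kb for Ctnnb1 to 0.125 per kb for Wif1, and the 5 genes under the filter are the lowest. A group mean of 0 is not drawn.

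The first question was whether 4 h of FICZ changed the members in WT organoids. Of the 34 members tested, 12 were called (35.3%): 7 rose and 5 fell. Over all genes tested, 30.8% were called, 15.1% higher and 15.7% lower, so on the deposited values the members' share was near the background. Their median log2 change was -0.00 and that of all genes tested -0.01. The class of transcription factors and crypt receptors had 5 of 7 genes called, receptors and destruction complex 4 of 9, and each other class 1. With the trend over GC content and length removed, 11 of the 34 members were called, 4 higher and 7 lower. Of all genes 16.6% were called there, which was below the members' share. The list was chosen with earlier results of these data known, so such shares do not test it as a set. With the replicate number also fitted as a block, 9 members were called (2 higher and 7 lower), against 13% of all genes.

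Sox9, an HMG box transcription factor of the crypt base (ENSMUSG00000000567, chr11:112782224-112787760, plus strand, GRCm38), had the largest called change. Its value was 3696 and 3551 in WT with DMSO and 2186, 1665 and 1951 in WT with FICZ. In AHR KO it was 3985 and 3877 with DMSO and 4149 and 4279 with FICZ. All 3 WT libraries with FICZ were thus below every other library. The log2 change with FICZ in WT was -0.91 ± 0.09 (SE; limma adjusted p = 0.000234), a level 46.9% lower. In AHR KO it was 0.10 ± 0.10 (adjusted p = 0.529).

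Lrig1, a transmembrane protein that restrains ErbB receptors and marks crypt stem cells (ENSMUSG00000030029, chr6:94604529-94700158, minus strand, GRCm38), had values of 3447 and 3300 in WT with DMSO and of 2612, 2657 and 2683 in WT with FICZ. The AHR KO libraries had 3408 and 3466 with DMSO and 3494 and 3599 with FICZ. Again the 3 WT libraries with FICZ were the lowest of the 9. The log2 change was -0.35 ± 0.05 in WT (limma adjusted p = 0.000679) and 0.05 ± 0.05 in AHR KO (adjusted p = 0.576).

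Sox9 and Lrig1 were the members whose response to FICZ differed between the genotypes in the interaction test, 2 of 34 (5.9%), both lower. Of all genes tested 0.447% were called in this contrast, 0.377% higher and 0.0706% lower. Because the list was chosen with earlier results known, these shares do not test it as a set. For Sox9 the change in WT minus the change in AHR KO was -1.01 ± 0.14 (95% interval -1.32 to -0.71, limma adjusted p = 0.0113). The call was lost, with adjusted p from 0.0544 to 0.087, without WT DMSO replicate 2, AHR KO DMSO replicate 1, AHR KO DMSO replicate 3 or AHR KO FICZ replicate 3. For Lrig1 the difference was -0.39 ± 0.07 (95% interval -0.55 to -0.24, limma adjusted p = 0.0456). That call was kept without WT FICZ replicate 2 and lost without each of the other 8 libraries (adjusted p = 0.0742 to 0.258), and with no filter (0.0878). In the fits without 1 library the log2 difference of Lrig1 stayed between -0.42 and -0.36.

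Sox4, a relative of Sox9 in crypt progenitors, was 3912 and 3101 in WT with DMSO and 2841, 2582 and 2775 in WT with FICZ. In AHR KO it was 3274 and 3170 with DMSO and 3408 and 3453 with FICZ. The WT groups did not overlap, but WT DMSO replicate 2 stood well above replicate 3. Sox4 fell by 0.35 on the log2 scale in WT (SE 0.09, limma adjusted p = 0.0127), a call that was lost without WT DMSO replicate 2 (-0.18, adjusted p = 0.116). Myc, the growth regulator and direct beta-catenin target, averaged 7540 ± 174 (SD, n = 2) in WT with DMSO and 6099 ± 429 (n = 3) with FICZ. It fell by 0.31 on the log2 scale (SE 0.06, limma adjusted p = 0.00525). The interaction was not called for either gene (Sox4 -0.44, adjusted p = 0.325; Myc -0.24, adjusted p = 0.57). The 95% intervals of both differences lay below 0 (-0.73 to -0.16 and -0.45 to -0.03). Leaving out 1 WT DMSO library moved the Sox4 difference either way. It was -0.61 without replicate 3, and smaller in size than -0.44 without replicate 2, where the change in WT was -0.18.

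Lgr5, the R-spondin receptor that marks crypt base stem cells and is not among the 39 members, had the same direction as Sox9: 1271 and 1200 in WT with DMSO, 490, 547 and 492 with FICZ, and 1253 to 1579 in the 4 AHR KO libraries. Its interaction was -1.24 ± 0.16 (limma adjusted p = 0.00784). Without AHR KO DMSO replicate 3 it was -1.13 (adjusted p = 0.0611).

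Tcf7l2 encodes TCF4, the main TCF protein of the intestinal epithelium (ENSMUSG00000024985, chr19:55741820-55933654, plus strand, GRCm38). It was the member with the largest called rise. Its value was 1396 and 1370 in WT with DMSO and 2625, 1952 and 2594 in WT with FICZ, while the AHR KO libraries had 973 and 898 with DMSO and 978 and 914 with FICZ. The 4 groups thus ordered as WT with FICZ, WT with DMSO and then AHR KO, whose DMSO and FICZ libraries overlapped. The log2 change with FICZ was 0.78 ± 0.11 in WT (limma adjusted p = 0.00107) and 0.02 ± 0.13 in AHR KO (adjusted p = 0.94). The difference between these changes was 0.76 ± 0.17 and was not called (adjusted p = 0.133), with a 95% interval of 0.38 to 1.14. Without WT FICZ replicate 2, the lowest of the 3, it was 0.90 and was called (adjusted p = 0.00244).

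Axin1, a scaffold of the destruction complex, fell with FICZ in both genotypes. Its value was 2715 and 2452 in WT with DMSO and 2016, 1954 and 1730 with FICZ, then 2084 and 1939 in AHR KO with DMSO and 1695 and 1548 with FICZ. FICZ libraries were below DMSO libraries within each genotype. The log2 change was -0.45 ± 0.08 in WT (limma adjusted p = 0.00285) and -0.31 ± 0.09 in AHR KO (adjusted p = 0.0339). In AHR KO the call was lost without any one of the 4 AHR KO libraries (adjusted p = 0.0511 to 0.21) and with no filter (0.0594).

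The second question was the same comparison in AHR KO organoids, where 8 of 34 members were called (23.5%), 6 higher and 2 lower. Over all genes 19.7% were called, 10.2% higher and 9.48% lower. Of these 8 members, 5 were also called in WT and in the same direction: Ephb3, Fzd5, Lrp5 and Kremen1 rose and Axin1 fell. A call in WT alone was made for 7 members (Sox9, Lrig1, Sox4, Myc, Tcf7l2, Notum and Ephb2), and a call in AHR KO alone for 3 (Sp5, Ephb4 and Cdca7). The share of all genes called in both genotypes is not given here, so this overlap is not read as particular to the members. Apart from Sox9 and Lrig1, no member's difference between the genotypes passed the interaction test.

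**Figure D3:**
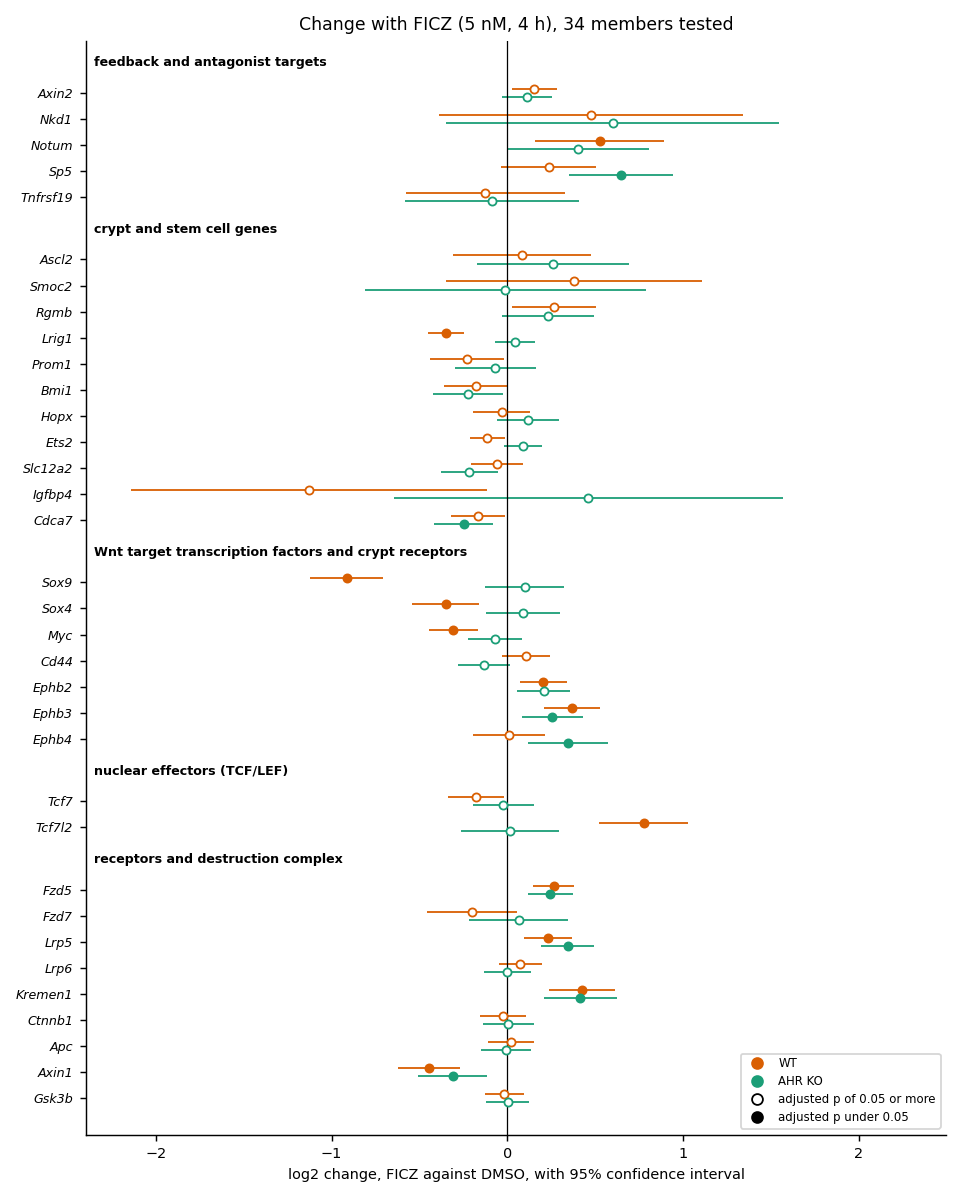
Log2 change with FICZ against DMSO (horizontal axis, with 95% confidence intervals) of the 34 members tested, in WT (orange) and AHR KO (green), by class. Filled points had an adjusted p under 0.05, and the intervals of WT and AHR KO do not overlap for Sox9, Lrig1, Sox4 and Tcf7l2.

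On the deposited values, the receptors that rose in both genotypes did so to a similar degree. With the trend over GC content and length removed, only Kremen1 in WT kept its call, and Lrp5 in WT turned to -0.03. Kremen1, a receptor for DKK proteins, was 612 and 681 in WT with DMSO and 815, 917 and 875 with FICZ, then 762 and 726 in AHR KO with DMSO and 932 and 1058 with FICZ. Its log2 change was 0.43 ± 0.09 in WT (limma adjusted p = 0.00442) and 0.42 ± 0.09 in AHR KO (adjusted p = 0.0136). Lrp5, the Wnt co-receptor, was 4067 and 4084 in WT with DMSO and 4982, 4396 and 5024 with FICZ, and in AHR KO 4399 and 4480 with DMSO and 5751 and 5522 with FICZ. It rose by 0.23 ± 0.06 (adjusted p = 0.0174) and 0.34 ± 0.07 (adjusted p = 0.00827). The Frizzled receptor Fzd5 rose from 1280 ± 46.9 (SD, n = 2) to 1537 ± 25.6 (n = 3) in WT (limma adjusted p = 0.0047) and from 1367 ± 17.0 to 1620 ± 22.2 (n = 2 each) in AHR KO (adjusted p = 0.0173).

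Of the ephrin receptors, which sort cells along the crypt axis, Ephb3 was 695 and 719 in WT with DMSO and 970, 894 and 877 with FICZ, then 732 and 797 in AHR KO with DMSO and 921 and 904 with FICZ. FICZ libraries were above DMSO libraries in both genotypes, by 0.37 ± 0.07 (limma adjusted p = 0.00394) and 0.26 ± 0.08 (adjusted p = 0.0435). Ephb4 was 1703 and 1400 in WT with DMSO and 1720, 1479 and 1473 with FICZ, which overlap, and in AHR KO 1267 and 1305 with DMSO and 1669 and 1602 with FICZ. It rose in AHR KO by 0.35 ± 0.10 (limma adjusted p = 0.0389). Ephb2 rose in WT by 0.21 ± 0.06 (adjusted p = 0.0281) and showed nearly the same value in AHR KO, 0.21 ± 0.07, without a call (adjusted p = 0.0544). There it was called with a minimum mean of 100 (0.0459), TMM scaling (0.0445), quantile normalization (0.0194) and without WT FICZ replicate 2 (0.0289).

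Of the feedback genes, Notum, a secreted hydrolase that removes the lipid from Wnt proteins, was 243 and 183 in WT with DMSO and 374, 291 and 259 with FICZ. In AHR KO it was 329 and 352 with DMSO and 425 and 478 with FICZ. It rose in WT by 0.53 ± 0.17 (limma adjusted p = 0.0353), and its value in AHR KO was 0.41 ± 0.18 (adjusted p = 0.143), which was called with only the groups compared in the fit (adjusted p = 0.046). Sp5, a zinc finger repressor that is itself a Wnt target, was 190 and 206 in WT with DMSO and 265, 220 and 218 with FICZ, then 243 and 259 in AHR KO with DMSO and 369 and 420 with FICZ. Its FICZ libraries were the highest within each genotype. The rise was called in AHR KO (0.65 ± 0.13, limma adjusted p = 0.00991) and not in WT (0.24 ± 0.12, adjusted p = 0.166), and the interaction of -0.41 had a 95% interval of -0.81 to -0.01 (adjusted p = 0.65). Cdca7, a Myc target linked to proliferation, had FICZ libraries below DMSO libraries in both genotypes. The change was -0.17 ± 0.07 in WT (limma adjusted p = 0.0892) and -0.25 ± 0.08 in AHR KO, where it was called (adjusted p = 0.0427).

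Over all genes tested, the changes with FICZ moved with the base composition of the genes. With FICZ in WT, the median log2 change went from -0.19 in the fifth of genes with the lowest GC content of their transcripts (31.2 to 44.4%) to 0.27 in the fifth with the highest (55.5 to 74.7%). In AHR KO it went from -0.21 to 0.29, and in the interaction the 5 medians lay between -0.02 and 0.01. The 7 members that rose in WT had 49.1 to 58.6% GC (median 55.9%) and the 5 that fell 49.3 to 55.8% (median 54.8%). In AHR KO the 6 that rose had 52.4 to 62.0% and the 2 that fell 50.4 to 55.8%, so the ranges overlapped in both genotypes. When a smooth trend over GC content and transcript length was removed from each library, Tcf7l2 (0.80, limma adjusted p = 0.00221) and Kremen1 (0.32, adjusted p = 0.0326) of the 7 kept their call in WT. Notum, Ephb2, Ephb3, Fzd5 and Lrp5 lost it, with changes from -0.03 to 0.23, and Ephb2 and Lrp5 changed sign. None of the 6 that rose in AHR KO kept its call, with changes from -0.00 to 0.32. The 5 members that fell in WT all kept theirs (-0.93 for Sox9, -0.64 for Axin1, -0.45 for Myc, and -0.44 for Lrig1 and Sox4), as did Axin1 in AHR KO (-0.51), while Cdca7 there lost its call (-0.20, adjusted p = 0.157). Ephb4 in WT became a call in the other direction (-0.32, adjusted p = 0.0387). Without the trend, 3 further members were called in WT: Cd44 (0.22, adjusted p = 0.0288) and Lrp6 (0.23, adjusted p = 0.0167) higher and Tcf7 (-0.30, adjusted p = 0.0123) lower. The part of the GC trend in the members' changes, beyond this refit, was not tested.

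**Figure D4:**
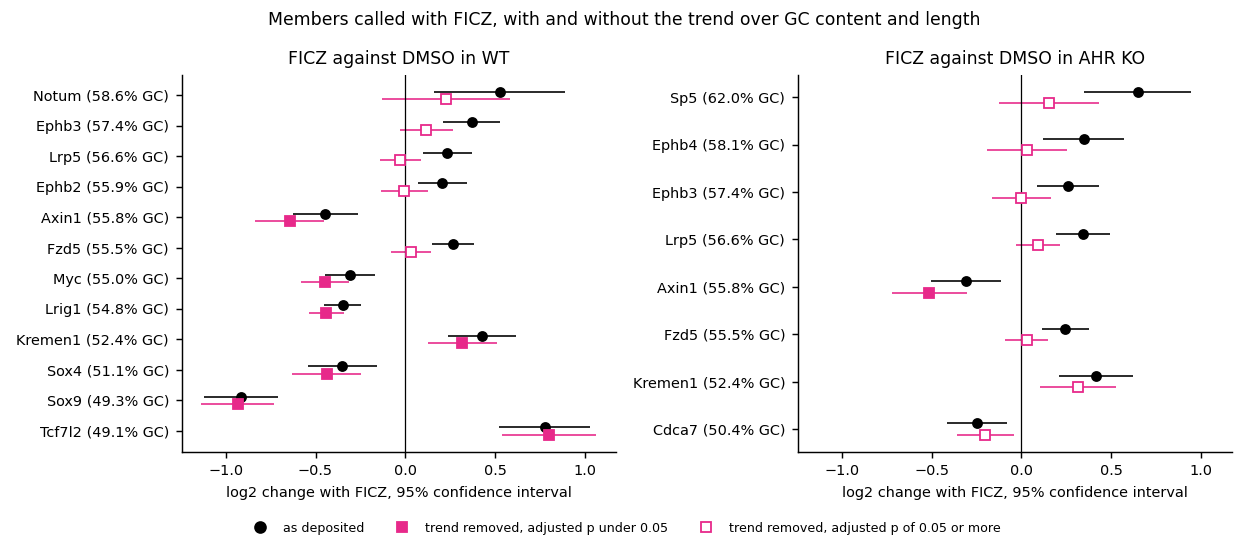
Log2 change with FICZ (horizontal axes, with 95% confidence intervals) of the 12 members called in WT and the 8 called in AHR KO, on the deposited values (circles) and after a trend over GC content and length was removed (squares, filled where the adjusted p was under 0.05). Genes are ordered by GC content, and most of the rises at the GC-rich end move to near 0 while the falls of Sox9, Sox4, Myc, Lrig1 and Axin1 stay.

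Leaving out single libraries also ended several of these smaller calls. In WT, Notum was lost without WT DMSO replicate 3, WT FICZ replicate 1 or either AHR KO DMSO library (adjusted p = 0.0523 to 0.268, with a change of 0.32 without WT DMSO replicate 3), Ephb2 and Lrp5 without either WT DMSO library or WT FICZ replicate 1 or 3 (0.0538 to 0.209 and 0.0525 to 0.0929), and Fzd5 and Kremen1 without WT DMSO replicate 2 (0.0548 and 0.0523). In AHR KO, Sp5 was lost without AHR KO DMSO replicate 1 or AHR KO FICZ replicate 3 (0.0683 to 0.0871), and Lrp5 without AHR KO DMSO replicate 1 (0.0761). Fzd5 and Kremen1 were lost without either AHR KO DMSO library or AHR KO FICZ replicate 3 (0.0789 to 0.0952 and 0.0736 to 0.0895), and Ephb4 without any one of the 4 AHR KO libraries (0.104 to 0.191). Ephb3 kept its call there in 2 and Cdca7 in 3 of the 9 fits that left out 1 library (lost at 0.0562 to 0.263 and 0.063 to 0.197). Both were lost without any AHR KO library or either WT DMSO library, and Ephb3 also without WT FICZ replicate 3. Other settings ended some of the same calls. With no filter these were Notum (0.0595) and Ephb2 (0.0546) in WT and Cdca7 (0.0752), Ephb3 (0.0683) and Ephb4 (0.0675) in AHR KO. Notum was lost with quantile normalization (0.065) and with only the groups compared in the fit (0.077), as was Ephb3 in AHR KO (0.0585 and 0.0672), and Cdca7 with TMM scaling (0.0507). A fit in which a group keeps 1 library assumes that it varies like the other groups.

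The third question was whether AHR KO and WT organoids differed in the members. Under DMSO 9 of 34 were called (26.5%), 4 higher and 5 lower in AHR KO, against 9.05% of all genes tested (4.21% higher and 4.83% lower). That share was no longer above the share of all genes without WT DMSO replicate 3 or without AHR KO DMSO replicate 3. Each of these fits left 1 library in a group. Under FICZ 16 of 34 were called (47.1%), 11 higher and 5 lower, against 20.0% of all genes (9.48% higher and 10.5% lower). As the list was chosen with earlier results known, these shares are a description and no test of the set. The members' median log2 difference was 0.02 under DMSO and 0.08 under FICZ, and that of all genes tested -0.01 and -0.00. Genotype was called under both treatments for 8 members: Notum, Tnfrsf19, Prom1 and Hopx (higher in AHR KO) and Slc12a2, Cdca7, Ephb2 and Tcf7l2 (lower). The share of all genes called under both treatments is not given here. Under FICZ but not under DMSO, Sp5, Lrig1, Sox9, Sox4, Myc, Fzd7 and Lrp5 were higher and Bmi1 was lower. Axin1 was called lower under DMSO, and its difference of -0.23 under FICZ was not called (adjusted p = 0.0735). Without WT FICZ replicate 3 it was called (-0.29, adjusted p = 0.0331). The FICZ and genotype contrasts share libraries, so their values stand side by side and are not independent of each other.

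**Figure D5:**
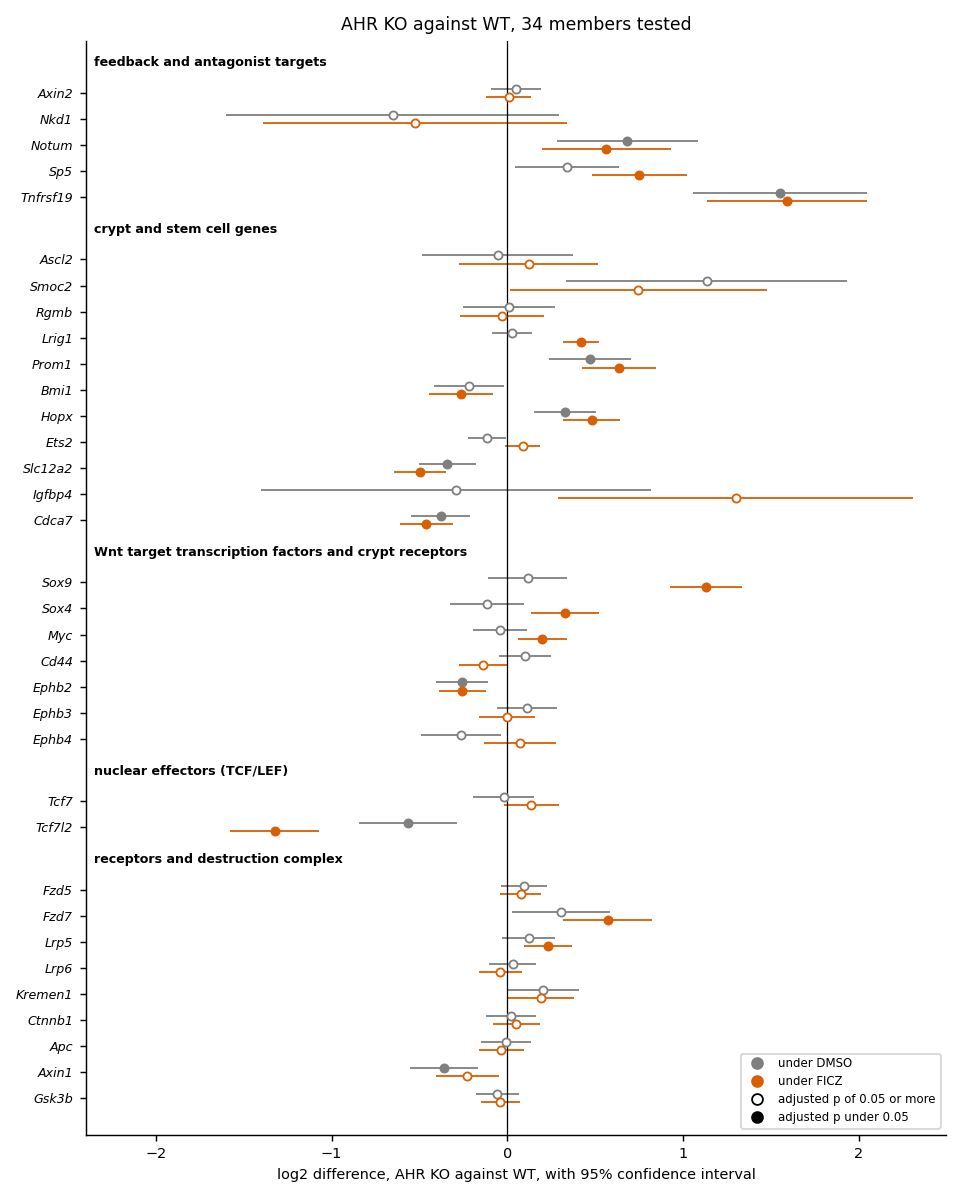
Log2 difference between AHR KO and WT (horizontal axis, with 95% confidence intervals) of the 34 members tested, under DMSO (grey) and FICZ (orange), by class. Filled points had an adjusted p under 0.05. Tnfrsf19 lies at 1.55 and 1.59, and Tcf7l2 at -0.56 and -1.32.

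Some markers of mature cells differed between genotypes as well. Of 8 colonocyte markers 5 passed the filter, of which 3 were lower in AHR KO under DMSO and all 5 under FICZ. The summed value of the list was 3443 to 3453 in WT and 1181 to 1453 in AHR KO with DMSO, and 2953 to 4367 and 940 to 1328 with FICZ. Of 8 goblet markers 5 passed the filter and 3 were lower under each treatment, with sums of 3969 to 5917 (WT) and 1741 to 1810 (AHR KO) under DMSO and 3692 to 4817 and 1307 to 1765 under FICZ. Of the 8 epithelial markers 3 were lower in AHR KO under each treatment, and Krt18 was higher under FICZ. None of the 7 proliferation markers was called between genotypes. Of 7 enteroendocrine markers 2 passed the filter, and neither was called between genotypes under either treatment. Among the other lists, Pdgfrb of the fibroblast markers was lower under both treatments (-1.60 and -1.55) and Dclk1 of the tuft cell markers under DMSO. With FICZ no colonocyte or goblet marker was called in either genotype, while Cdx1 and Cdx2 rose in WT and Cdk1 fell in both genotypes. The part of these shifts in the members' differences was not tested.

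Tnfrsf19, a receptor of the TNF family known as TROY and a Wnt target in crypt stem cells, differed most. It was 78.9 and 58.9 in WT with DMSO and 66.1, 53.3 and 68.9 with FICZ, against 212 and 192 in AHR KO with DMSO and 160 and 226 with FICZ. Every AHR KO library was above every WT library. The difference was 1.55 ± 0.22 under DMSO (limma adjusted p = 0.00219) and 1.59 ± 0.20 with the ligand (adjusted p = 0.000419), or 2.93-fold and 3.02-fold, and FICZ itself was not called in either genotype.

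With DMSO, Notum stood 0.68 ± 0.18 higher in AHR KO (limma adjusted p = 0.042), and with FICZ 0.56 ± 0.17 higher (adjusted p = 0.0366). Both calls were lost in several fits: under DMSO without WT DMSO replicate 3 or any AHR KO library (0.0544 to 0.236), and under FICZ without WT FICZ replicate 2 or 3 or any AHR KO library (0.0565 to 0.208). With no filter both were lost (0.0712 and 0.0608), and with quantile normalization that under DMSO (0.0527). Sp5 was higher by 0.75 ± 0.12 under FICZ (limma adjusted p = 0.00174), and by 0.34 ± 0.13 without a call under DMSO (adjusted p = 0.148). Axin2, the scaffold most used as a readout of Wnt activity, lay between 2854 and 3489 in all 9 libraries. FICZ libraries were above DMSO libraries in both genotypes. The genotype difference of Axin2 was 0.05 (95% interval -0.09 to 0.19) under DMSO and 0.01 (-0.12 to 0.14) under FICZ. With FICZ in WT it was 0.15 ± 0.06 (adjusted p = 0.0679), which became a call with TMM scaling (0.17, adjusted p = 0.046) and quantile normalization (0.19, adjusted p = 0.0317) and was near 0 with the GC and length trend removed (at or under 0.01 in size). Nkd1, another feedback inhibitor, stood at 7.1 to 24.1 and was not called. At this level the precision was low, and its 95% intervals ran from -1.60 to 1.55 over the 4 pairwise contrasts. Apcdd1 (4.6 to 12.1) and Wif1 (0 to 1.4) were under the filter.

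Among the crypt and stem cell genes, Prom1 was 14907 and 14622 in WT with DMSO and 11596, 13925 and 12363 with FICZ, against 21020 and 19970 in AHR KO with DMSO and 21805 and 17530 with FICZ. All 4 AHR KO libraries were above all 5 WT libraries. The difference was 0.47 ± 0.10 under DMSO (limma adjusted p = 0.0197) and 0.63 ± 0.10 with the ligand (adjusted p = 0.00114). With FICZ in WT, Prom1 had a change of -0.23 ± 0.10 that was not called (adjusted p = 0.0938), but was without WT FICZ replicate 2 (-0.30, adjusted p = 0.0293) or either AHR KO FICZ library (0.0426 to 0.0428). Hopx, a homeobox gene of slow-cycling crypt cells, averaged 929 ± 25.6 in WT and 1170 ± 121 in AHR KO with DMSO (SD, n = 2 each), and 909 ± 17.1 (n = 3) and 1268 ± 52.9 (n = 2) with FICZ. It was higher in AHR KO by 0.33 ± 0.08 (limma adjusted p = 0.0297) and 0.48 ± 0.07 (adjusted p = 0.00121). Lrig1 was higher under FICZ by 0.42 ± 0.05 (limma adjusted p = 0.000162) and differed by 0.03 ± 0.05 under DMSO (adjusted p = 0.798).

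Lower in AHR KO were Slc12a2 and Cdca7. Slc12a2, the basolateral sodium, potassium and chloride cotransporter of crypt cells, was 18993 and 18651 in WT with DMSO and 18461, 18161 and 17636 with FICZ, against 15456 and 14280 in AHR KO with DMSO and 13775 and 11884 with FICZ. Cdca7 was 2874 and 2841, then 2640, 2323 and 2686 in WT, against 2158 and 2237, then 1912 and 1789 in AHR KO. For both genes every AHR KO library was below every WT library. With FICZ in AHR KO, Slc12a2 had a change of -0.22 ± 0.07 that was not called (limma adjusted p = 0.0625). Leaving out 1 AHR KO FICZ library moved this change either way. It was -0.32 without replicate 1, and smaller in size than -0.22 without replicate 3, the lowest of all libraries (11884). Between genotypes Slc12a2 differed by -0.34 ± 0.07 under DMSO (limma adjusted p = 0.017) and -0.50 ± 0.07 with the ligand (adjusted p = 0.000554). Cdca7 differed by -0.38 ± 0.08 (adjusted p = 0.0119) and -0.46 ± 0.07 (adjusted p = 0.00107). Bmi1, a Polycomb repressor of reserve stem cells, was lower under FICZ (-0.26 ± 0.08, limma adjusted p = 0.0463), a call kept in 2 of 9 fits without 1 library and lost without either DMSO group's libraries, WT FICZ replicate 1 or 3, or AHR KO FICZ replicate 3 (0.0595 to 0.314). Without the last of these libraries its difference was -0.16. Bmi1 was also lost with no filter (0.076), quantile normalization (0.0542) and only the groups compared (0.0955).

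The other stem cell genes gave no call. Ascl2, the transcription factor that sets crypt stem cell fate, lay between 196 and 300 in all libraries, with a genotype difference of -0.05 (95% interval -0.49 to 0.38) under DMSO and 0.12 (-0.27 to 0.52) under FICZ. Rgmb, a BMP co-receptor, lay between 337 and 486, with FICZ libraries above DMSO libraries in both genotypes (0.27 ± 0.11, limma adjusted p = 0.0833, and 0.23 ± 0.12, adjusted p = 0.195). Ets2, an ETS family factor, lay between 5977 and 6686, with changes of -0.11 ± 0.04 (adjusted p = 0.0773) and 0.09 ± 0.05 (adjusted p = 0.216). Smoc2, a secreted matrix protein of crypt base cells, was 17.0 to 38.4 in WT and 39.8 to 44.1 in AHR KO, a difference of 1.13 ± 0.36 under DMSO that was not called (limma adjusted p = 0.0809), except with only the groups compared in the fit (adjusted p = 0.0392). Without WT FICZ replicate 1, which had 38.4, Smoc2 was called under both treatments (1.13, adjusted p = 0.0404, and 1.06, adjusted p = 0.0365). Igfbp4, a secreted binding protein of insulin-like growth factors, had 24.8 and 66.1 in WT with DMSO and 14.4, 30.9 and 13.1 with FICZ, and 30.9 to 53.6 in AHR KO. Its log2 change of -1.13 ± 0.46 with FICZ in WT was not called (limma adjusted p = 0.0855). Without WT FICZ replicate 2 it was called (-1.50, adjusted p = 0.0257). The change was -1.82 without WT DMSO replicate 2. Without WT DMSO replicate 3, Igfbp4 kept only the value of 24.8 in that group, within the range of the FICZ libraries, and changed by less. Under FICZ it was higher in AHR KO by 1.30 ± 0.46 without a call (adjusted p = 0.0715), which became one without either WT DMSO library or WT FICZ replicate 2 (0.0204 to 0.0453). Msi1, an RNA-binding protein, stood at 0 to 3.3 and was not tested.

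Of the transcription factors and crypt receptors, Sox9 was 2.19-fold higher in AHR KO under FICZ (1.13 ± 0.09, limma adjusted p = 2.76e-05), where the WT level had fallen. Under DMSO its difference was 0.12 ± 0.10 (adjusted p = 0.533). Sox4 was higher under FICZ by 0.33 ± 0.09 (limma adjusted p = 0.0228) and was lost without WT FICZ replicate 3 or either AHR KO FICZ library (0.0518 to 0.121). Myc was higher by 0.20 ± 0.06 (adjusted p = 0.0493), a call kept without WT FICZ replicate 1 and lost without each of the other 8 libraries (0.065 to 0.226), with a pseudocount of 0.1 (0.0502), with no filter (0.0889) and with only the groups compared (0.103). Ephb2 was 9510 and 8832 in WT with DMSO and 10903, 9977 and 10861 with FICZ, against 7798 and 7558 in AHR KO with DMSO and 9245 and 8492 with FICZ. Within each treatment the genotypes did not overlap, and the difference was -0.26 ± 0.07 under DMSO (limma adjusted p = 0.0405) and -0.26 ± 0.06 with the ligand (adjusted p = 0.0152). Cd44 (16233 to 19157) was not called in any contrast on the deposited values.

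Tcf7l2 was lower in AHR KO by -0.56 ± 0.13 under DMSO (limma adjusted p = 0.0202) and by -1.32 ± 0.11 with the ligand (adjusted p = 3.91e-05), where AHR KO stood at 0.40 of the WT level. Tcf7, its relative that is also a Wnt target, lay between 729 and 913 and was not called on the deposited values. Tcf7l1 (2.36 to 18.6) and Lef1 were under the filter. Lef1 was 1.99 to 2.75 in the WT libraries with FICZ and 4.28 to 22.6 in the other 6 libraries, and was not tested.

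In the class of receptors and destruction complex, the Frizzled receptor Fzd7 was 445 and 387 in WT with DMSO and 310, 375 and 403 with FICZ, against 510 and 516 in AHR KO with DMSO and 537 and 535 with FICZ. All 4 AHR KO libraries were above all WT libraries. The difference was called under FICZ (0.57 ± 0.12, limma adjusted p = 0.00608) and not under DMSO (0.31 ± 0.13, adjusted p = 0.171). Lrp5 was higher under FICZ (0.23 ± 0.06, adjusted p = 0.0235) and was lost without either AHR KO FICZ library (0.0714 to 0.125), and with only the groups compared in the fit (0.0695). Axin1 was lower under DMSO (-0.36 ± 0.09, limma adjusted p = 0.0304).

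Of the core of the cascade, 4 genes were not called in any contrast on the deposited values. Ctnnb1 lay between 23960 and 26544, Apc between 4008 and 4544, Gsk3b between 3886 and 4239 and Lrp6 between 3635 and 4045. Over the 4 pairwise contrasts the 95% intervals of these 4 genes stayed within -0.18 and 0.20 on the log2 scale in that fit. With the GC and length trend removed, Lrp6 was called higher with FICZ in WT (0.23, adjusted p = 0.0167).

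Under DMSO the genotype calls rested on 2 libraries a group, and leaving out 1 of the 4 ended most of them. Only Tnfrsf19 kept its call in all 9 such fits. Prom1, Cdca7, Tcf7l2 and Axin1 lost it without any one of the 4 DMSO libraries (0.09 to 0.128, 0.0622 to 0.0895, 0.0747 to 0.151 and 0.0551 to 0.207), Ephb2 also without WT FICZ replicate 3 (0.0586 to 0.248), and Hopx and Slc12a2 without either WT DMSO library or AHR KO DMSO replicate 3 (0.0946 to 0.231 and 0.079 to 0.152). Ephb2 and Axin1 were also lost with no filter (0.078 and 0.0543) and quantile normalization (0.127 and 0.0525). Ephb2 under FICZ was lost without WT FICZ replicate 3 or AHR KO FICZ replicate 3 (0.0553 to 0.134).

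Other genes of the pathway were read from a list of 95 names, of which 94 were found and 64 tested. With FICZ in WT 14 rose and 12 fell, in AHR KO 10 rose and 4 fell, and Lgr5 was the 1 called in the interaction. Between genotypes 4 were higher and 2 lower under DMSO, and 11 higher and 4 lower under FICZ. The shares called were 40.6% and 21.9% with FICZ in WT and AHR KO, and 9.4% and 23.4% between genotypes under DMSO and FICZ, against 30.8%, 19.7%, 9.05% and 20.0% of all genes tested. Only 5 of the genes for ligands and their secretion passed the filter. Of the ligands, Wnt7b was 453 and 372 in WT with DMSO and 606, 733 and 578 with FICZ, against 1178 and 1277, and 1610 and 1979, in AHR KO. It was higher in AHR KO by 1.58 ± 0.14 under DMSO (limma adjusted p = 0.000163) and 1.49 ± 0.13 with the ligand (adjusted p = 3.72e-05). Wnt10a, at 21.7 to 74.0 in WT and 195 to 366 in AHR KO, was higher by 2.71 ± 0.32 (limma adjusted p = 0.000783) and 2.37 ± 0.29 (adjusted p = 0.000299). The Wnt5a receptor gene Ror2 was 8.1 to 28.9 in WT and 31.3 to 65.9 in AHR KO, and was higher under FICZ (2.09 ± 0.51, limma adjusted p = 0.016) but not called under DMSO (1.39, adjusted p = 0.158). Dact1, whose product antagonises the pathway at Dishevelled, was 16.2 to 44.4 in WT and 4.3 to 10.6 in AHR KO. It was lower under FICZ (-1.75 ± 0.47, adjusted p = 0.0257), with -1.83 under DMSO (adjusted p = 0.0544). Ror2 was lost without either AHR KO FICZ library (0.0791 to 0.0874), and Dact1 without these or WT FICZ replicate 1 or 3 (0.0604 to 0.139) and with no filter (0.0617). Under DMSO, Dact1 was called with quantile normalization (0.0406), robust eBayes (0.0499) and the GC and length trend removed (0.0499).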

How the data were processed

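Bulk RNA-seq of 9 colon organoid libraries was analysed. The authors deposited 1 table of normalised RSEM values per Ensembl gene, a signal that is not a whole read count. The submitters' processing notes name STAR 2.5.2a, RSEM 1.2.31, DESeq2 1.16.1 and GRCm38. The study's methods name a stranded, ribosome-depleted TruSeq kit and counting with summarizeOverlaps on mm10. Which of these programs made the deposited table, and whether strand was used, is not given in the sources used here. In each library 39.1 to 59.8% of low values lay within 0.02 reads of a whole multiple of the commonest low step, so reads could not be recovered and no count model was run.

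Identifiers were matched to GENCODE M21 (48435 of 48795, 99.3%). Values were analysed as log2(value + 1) with limma 3.58.1 in R 4.3.3 (eBayes with trend), keeping the 12741 genes whose average across the 9 libraries reached 10. All 4 groups entered 1 fit, p-values were two-sided and Benjamini-Hochberg adjusted over all genes tested, and an adjusted p under 0.05 was called. A log2 change is on the log2(value + 1) scale and understates the change of low genes. The script was tested on simulated data. The replicate numbers of the sample descriptions were used; sample titles number them otherwise. GC content was taken over all annotated transcripts of a gene, and 99.7% of tested genes had it.

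The members and lists were chosen with earlier results of these data known. All 39 members are named. Each library's value is given for members called in the interaction and, in each class and other contrast, for up to 2 called members with the largest change. Other pathway genes are named where called in the interaction or where a log2 change was 1 or more in size. Alternatives were pseudocounts of 0.1 and 10, no filter, a mean of 100 or more, TMM and quantile scaling, only the groups compared, the replicate number as a block (fixed or as the random effect of the line), robust eBayes, removal of a trend over GC content and length (splines with 5 degrees of freedom), and leaving out each library. Under all scalings the median log2 change of all genes lay between -0.022 and 0.016.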

Additional observations from a re-analysis of the deposited data

Results flagged for a closer look

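Sox9 and Lrig1 stood out because the change with FICZ differed between WT and AHR KO by the test of that difference itself. For Sox9 the change in WT minus the change in AHR KO was -1.014 on the log2 scale (SE 0.14, limma adjusted p = 0.0113), lower with FICZ in 3 of 3 WT libraries than in both WT DMSO libraries. For Lrig1 it was -0.393 (SE 0.07, limma adjusted p = 0.0456), also with 3 of 3 WT libraries below both controls. Over the alternatives the adjusted p ran from 0.00197 to 0.087 for Sox9 and from 0.0327 to 0.258 for Lrig1.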

How the results depend on the processing

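Of the 47 called results of the members, 16 kept direction and call under every alternative run. These are Lrig1, Sox9, Myc, Tcf7l2 and Axin1 with FICZ in WT, Tnfrsf19 between genotypes under DMSO, and the 10 genotype differences under FICZ of Sp5, Tnfrsf19, Lrig1, Prom1, Hopx, Slc12a2, Cdca7, Sox9, Tcf7l2 and Fzd7. Of 985 alternative values of called results 171 lost the call, and of 2536 values of uncalled results 30 gained one and 136 had another sign without a call. With the GC and length trend removed, and then with the replicate block added, the FICZ change in WT turned to -0.005 and -0.028 for Ephb2, -0.319 and -0.336 for Ephb4 and -0.027 and -0.047 for Lrp5, and in AHR KO to -0.001 in both for Ephb3. The number of members called with FICZ in AHR KO, 8, became 4 with no filter, 1 with the trend removed and 1 with the trend removed and the replicate block, while the share of all genes tested that was called went from 19.7% to 7.7%, 3.53% and 2.55%. For the interaction, 2 calls became 1 with no filter, with the replicate block and with the block and the trend removed (all genes: 0.447%, then 0.19%, 0.306% and 0.299%). The cause was not tested. Leaving out 1 library also changed the share of all genes called, so the ranges below are not particular to the members. Leaving out 1 WT FICZ library does not reduce a group to 1 library. Without WT FICZ replicate 1, 2 or 3, FICZ in WT called 9, 14 and 10 members. The shares of all genes were 24.3%, 32.4% and 23%, against 12 members and 30.8% with all libraries. With 1 library left out, the calls ranged from 8 to 14 (FICZ in WT), 0 to 9 (FICZ in AHR KO), 0 to 3 (interaction), 1 to 10 (genotype under DMSO) and 10 to 16 (genotype under FICZ). Libraries of the same genotype and number showed little shared deviation (r = 0.035 to 0.05), and the main fit did not pair them. In a group of 2 libraries the deviations mirror each other, so this check is weak and cannot exclude pairing. The replicate block, a number shared across genotypes, lost 7 calls (Notum and Ephb2 with FICZ in WT, Ephb3 with FICZ in AHR KO, Lrig1 in the interaction, Notum under DMSO, Myc and Lrp5 under FICZ). It gained 2 (Slc12a2 with FICZ in AHR KO, Axin1 under FICZ). With the line as random effect, Ephb2 with FICZ in AHR KO was gained, and of the other pathway genes the replicate block gained Dact1 under DMSO. A fit with the groups compared only cannot be made for the interaction. From the commonest low step, 1 read was estimated to be worth a value of 0.802 to 1.099 in each library, and members at low values (Nkd1, Smoc2, Igfbp4) had the widest intervals.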
